A study of Mus musculus with 4 samples.

Results

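The Ms4a genes form a cluster on mouse chromosome 19 and encode small proteins that pass the cell membrane several times. They were measured in lymphoid-primed multipotent progenitors (LMPP), early blood-forming cells of the bone marrow with both lymphoid and myeloid potential. The members are 9 genes, chosen by symbol: Ms4a1, Ms4a2, Ms4a3, Ms4a4b, Ms4a4c, Ms4a6b, Ms4a6c, Ms4a6d and Ms4a7. A probe belonged to a member when its RefSeq accession named that gene, which gave 11 of 55669 probes, with 3 for Ms4a4c and 1 for each other member. The array named 20280 gene symbols in all.

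The cells came from mice with a green fluorescent protein (GFP) knockin at IRF8, a transcription factor of dendritic cell and monocyte development, so both groups carried the reporter. Zygosity, strain, sex and age are not given in the sources used here. Cells were enriched on magnetic columns and then sorted as negative for lineage markers, IL-7R and CD150 and positive for Sca-1, CD117, CD34 and CD135. The reporter split them into a GFP-negative and a GFP-positive group, with 2 one-colour arrays per group, labelled exp1 and exp2. The comparison asks how the transcripts of progenitors with and without the reporter signal differ. Whether replicate arrays used RNA of separate mice is unknown from the labels, and p-values measure no more than the spread between arrays, possibly a technical one. Of 59305 spots on an array, 33506 and 33681 were well above background on the negative arrays and 29631 and 30266 on the positive arrays, and no spot was saturated. Of the gate's genes, Kit, Ly6a (Sca-1), Cd34, Flt3 (CD135) and Il7r were above background on all 4 arrays and Slamf1 (CD150) on none. Il7r, whose protein the gate excludes, was higher in the positive group (log2 difference 2.40, limma adjusted p = 0.000835), and Ly6a was lower (-0.96, adjusted p = 0.00222). Irf8 itself, which checks the labels, had log2 signals of 1.64 and 1.60 on the negative arrays and 5.13 and 5.22 on the positive arrays (difference 3.55, SE 0.06, limma adjusted p = 0.000802).

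Several Ms4a proteins are known as markers of single blood lineages. Ms4a1 is the B cell antigen CD20, Ms4a2 is the beta chain of the high-affinity IgE receptor of mast cells and basophils, Ms4a3 (HTm4) is expressed by granulocyte and monocyte progenitors, Ms4a4b (Chandra) is a T cell surface protein, and Ms4a7 is found on macrophages. In the RefSeq annotation of GRCm38.p6, used for names and gene order because the array was designed on mm9, the region from Ms4a10 to Ms4a3 holds 21 Ms4a genes. Of these, 17 have a probe that could be named here.

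The bases upstream of 3 members are shown, Ms4a3 because it differed most between the groups and the neighbours Ms4a4b and Ms4a4c because their upstream bases are the most alike. They are the 250 bases before the annotated start, from RefSeq on GRCm38.p6, on the gene's strand. None of the motifs searched for matched within these bases, so no letter is in capitals.
Ms4a3 (chr19:11640852-11641101, minus strand): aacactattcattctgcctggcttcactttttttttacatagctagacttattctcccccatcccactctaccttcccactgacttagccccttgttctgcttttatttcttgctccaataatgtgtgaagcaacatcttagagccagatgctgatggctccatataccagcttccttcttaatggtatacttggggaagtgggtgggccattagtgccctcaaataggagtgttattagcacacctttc
Ms4a4b (chr19:11443308-11443557, plus strand): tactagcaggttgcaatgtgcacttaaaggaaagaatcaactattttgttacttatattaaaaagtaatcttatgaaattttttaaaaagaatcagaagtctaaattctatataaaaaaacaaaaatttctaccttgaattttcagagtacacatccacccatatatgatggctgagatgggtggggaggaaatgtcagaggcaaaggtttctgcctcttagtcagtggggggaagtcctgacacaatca
Ms4a4c (chr19:11407411-11407660, plus strand): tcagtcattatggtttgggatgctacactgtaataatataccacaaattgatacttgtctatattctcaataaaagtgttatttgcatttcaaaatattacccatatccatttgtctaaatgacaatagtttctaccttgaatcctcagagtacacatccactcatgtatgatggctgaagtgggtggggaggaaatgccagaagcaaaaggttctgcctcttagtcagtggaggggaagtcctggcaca

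Promoter windows of 300 bases (250 before and 50 after the start) matched 7 of the 9 members by symbol, with 8 windows because Ms4a7 has 2 starts. The letters searched on both strands were GAAANNGAA, paired IRF elements, found in 8.56% of all 32851 windows, GGAANNGAA, an Ets-IRF composite, found in 8.24%, GAGGAAGT, a PU.1 core, found in 3.20%, and TTGCNNAA, a C/EBP type site, found in 10.8%. A stretch can match GAAANNGAA and GGAANNGAA only with different letters, but neighbouring matches may overlap. Ms4a7 held GAAANNGAA in each of its windows, and Ms4a3 held TTGCNNAA from 42 to 49. The windows of Ms4a4b, Ms4a4c and Ms4a2 held none of these letters, and the upstream bases of Ms4a4b and Ms4a4c were the most alike: a global alignment of the 250 bases of each held 185 identical positions, 74.0%. For Ms4a6b and Ms4a6c it held 149, 59.6%. Whether the windows of Ms4a6b and Ms4a6c held any of the motifs is not reported here. A match is a description of letters and shows no binding.

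The measured Ms4a genes were mostly higher in the IRF8-GFP positive progenitors. Of the 9 members, 5 were well above background on both arrays of a group and were tested: 4 were higher, at a limma adjusted p under 0.05, and 1, Ms4a6b, passed in neither direction. Over all 22362 genes and unnamed transcripts tested, 38.5% were higher and 21.4% lower by the same rule, 59.9% in either direction. These shares are also the background for the counts of the gene lists below. The arrays of the groups did not overlap for any of the 5 members, against 82.2% of all genes, and both positive arrays were above both negative ones for 4 members, against 52.4%. Ms4a3 and Ms4a6c differed by at least 2-fold, which 2.33% of all genes did upward and 5.61% downward. The median log2 difference of the 5 members was 0.65, against 0.16 for all genes. Scaling moves the share of higher among all called genes, which was 64.3% here and lay between 28.9% (spike-in scaling) and 73.7% (normexp background correction) over 8 scalings. Under them 3 or 4 of the 5 members were higher and 0 or 1 lower. The share of all genes tested that was higher lay between 14.8% (spike-in scaling) and 44.8% (normexp background correction). These are bulk samples, in which more cells carrying a transcript and more transcript per cell cannot be told apart.

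**Figure D1:**
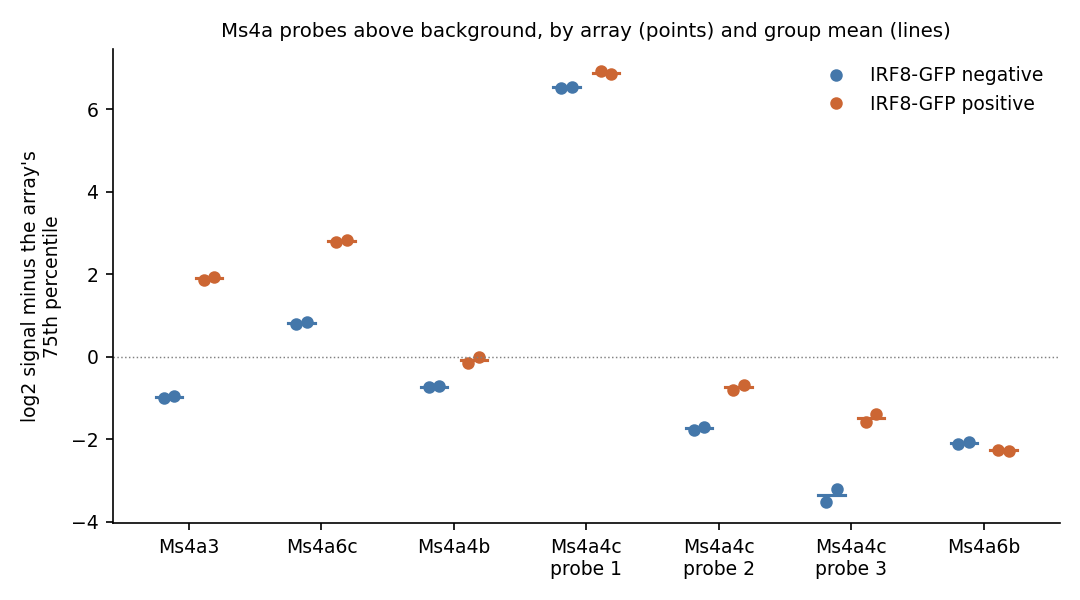
Log2 signal minus the array's 75th percentile (y axis) for the 7 tested probes of 5 Ms4a members (x axis), with a point for each array and a line for each group mean of 2 arrays. The positive arrays lie above the negative arrays in every probe except that of Ms4a6b, where they lie slightly below; heights of different probes are not comparable.

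Ms4a3 changed most. Its log2 signals, relative to each array's 75th percentile, were -0.99 and -0.96 on the negative arrays and 1.87 and 1.95 on the positive arrays. Both positive arrays lay far above both negative arrays, whose spread was small beside the gap. The group means were -0.97 ± 0.02 (SD, n = 2) and 1.91 ± 0.05 (SD, n = 2), which differ by 2.88 (SE 0.06) on the log2 scale, 7.38-fold (limma adjusted p = 0.000802). Its difference lay between 2.47 and 2.88 over the 8 scalings and passed in each of them and without any single array.

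Primary granule genes are transcribed in granulocyte and monocyte progenitors, as Ms4a3 is. Of 8 tested genes in the primary granule list 5 were higher and 1 lower, with a median log2 difference of 1.002. This list also holds 2 transcription factor genes, Gfi1 and Cebpe, and Cebpe did not pass (0.10, limma adjusted p = 0.485). Ctsg, which encodes cathepsin G, was 9.15-fold higher, Elane, the elastase gene, 2.97-fold, Mpo, the myeloperoxidase gene, 2.88-fold, and Prtn3, the proteinase 3 gene, 2.76-fold. Gfi1, a repressor needed for neutrophil development, fell by 0.68 on the log2 scale. Of 7 neutrophil markers, no array had Ltf, Ngp or Mmp8 above background. The summed level of the 7, in multiples of the 75th percentile signal, was 1.04 to 1.10 on the negative arrays, against 0.761 to 0.845 on the positive arrays. The S100a9 probe made up 47.2% to 47.9% of the sum on the negative arrays and 28.7% to 30.1% on the positive arrays. S100a9 was lower (-1.11, limma adjusted p = 0.00186) and Lcn2 higher (0.43, adjusted p = 0.0158). S100a8 (-1.16, adjusted p = 0.137) and Camp (-0.09, adjusted p = 0.305) did not pass.

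Ms4a6c, a gene of the Ms4a6 subgroup, came next. Its log2 signals were 0.80 and 0.84 on the negative arrays and 2.79 and 2.83 on the positive arrays. The arrays of each group lay close together and the groups did not overlap. The group means were 0.82 ± 0.03 (SD, n = 2) and 2.81 ± 0.02 (SD, n = 2), which differ by 1.99 (SE 0.06) on the log2 scale, 3.98-fold (limma adjusted p = 0.000945). Over the 8 scalings it lay between 1.68 and 1.99, and it passed in each and without any single array.

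Ms4a6b, the neighbour of Ms4a6c on the same strand, did not rise with it. Its log2 signals were -2.11 and -2.05 on the negative arrays and -2.24 and -2.28 on the positive arrays, so that both positive arrays lay just below both negative arrays. The log2 difference was -0.18 (SE 0.06), with a limma adjusted p of 0.0546. No direction can be given: it was called lower with spike-in scaling (-0.49, adjusted p = 0.00717) and with the percentile taken over probes above background on all arrays (-0.42, adjusted p = 0.00715), and its value was 0.037 under normexp background correction. Whether the probes of these related genes also bind each other's transcripts was not tested, since probe sequences were not used here.

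Ms4a4b, which lies between Ms4a4c and Ms4a6c, rose modestly. Its log2 signals were -0.72 and -0.71 on the negative arrays and -0.14 and -0.00083 on the positive arrays. The positive arrays lay above the negative ones and were spread more widely. The group means were -0.72 ± 0.007 (SD, n = 2) and -0.07 ± 0.10 (SD, n = 2), which differ by 0.65 (SE 0.07) on the log2 scale, 1.57-fold (limma adjusted p = 0.00394). It was higher and passed under all 8 scalings, from 0.34 to 0.69, and without any single array, with an adjusted p of up to 0.0372.

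Of 9 tested T cell and interferon-linked genes 0 were higher and 6 lower, with a median log2 difference of -0.80 (with normexp background correction 1 was higher). Of the 6, 4 are interferon-linked: the antiviral genes Ifit1 (-2.58), Ifit3 (-2.50) and Oasl2 (-1.30) and the interferon regulator Irf7 (-1.26). Ifit3 was above background on only 1 of 2 positive arrays, and normexp background correction moved Ifit1 to -1.35 and Ifit3 to -1.27. Of the T cell genes, Tnfrsf18, which encodes the costimulatory receptor GITR, fell by 0.80, and the kinase gene Lck had -0.20, a call lost when any 1 array was left out. Cd3e (0.77, adjusted p = 0.137) and Cd4 (0.10, adjusted p = 0.227) did not pass. Of 6 T cell markers, Cd3d, Cd3g and Cd8a were not above background on any array, and the summed level of the 6 was 23.0 to 23.4 on the negative arrays, against 21.5 to 22.1 on the positive arrays. Such sums follow their brightest probe, here that of Lck with 74.0% to 82.4% of the sum.

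Ms4a4c, the neighbour of Ms4a4b, is the member with several probes, and they disagree in size. All 3 were named by the same RefSeq transcript. The brightest, which represents the gene in the counts above, had log2 signals of 6.53 and 6.54 on the negative arrays and 6.94 and 6.85 on the positive arrays, a log2 difference of 0.36 (SE 0.06, limma adjusted p = 0.0108). This difference is 0.20 above the median of all genes, and its sign turned with cyclic loess (-0.12), in the deposited matrix of the authors (-0.10) and after quantile normalization (-0.10), so that this probe gives no direction. It also did not pass with spike-in scaling (0.05), with the percentile over probes above background on all arrays (0.13), without negative replicate 1 (adjusted p = 0.0699) or without negative replicate 2 (adjusted p = 0.0679).

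The other 2 probes of Ms4a4c were higher under all 8 scalings. The second had log2 signals of -1.77 and -1.69 on the negative arrays, against -0.81 and -0.67 on the positive arrays. Its log2 difference was 0.99 (SE 0.08, limma adjusted p = 0.00282 over 30478 probes), and lay between 0.69 and 1.09 over the scalings. The third had -3.51 and -3.21 on the negative arrays, against -1.58 and -1.38 on the positive arrays, with a difference of 1.88 (SE 0.14, adjusted p = 0.00263) and a range of 1.04 to 1.96. On both, the positive arrays lay above the negative ones by several times the spread within a group. Tested as probes under the main scaling, 3 of 3 were higher, against 35.0% of all probes. The brightest was called under only 3 of the 8 scalings, and probes of 1 transcript are not independent. With the mean of the 3 probes the gene's log2 difference was 1.08 (SE 0.08, adjusted p = 0.00204). Which transcripts each probe detects was not tested.

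**Figure D2:**
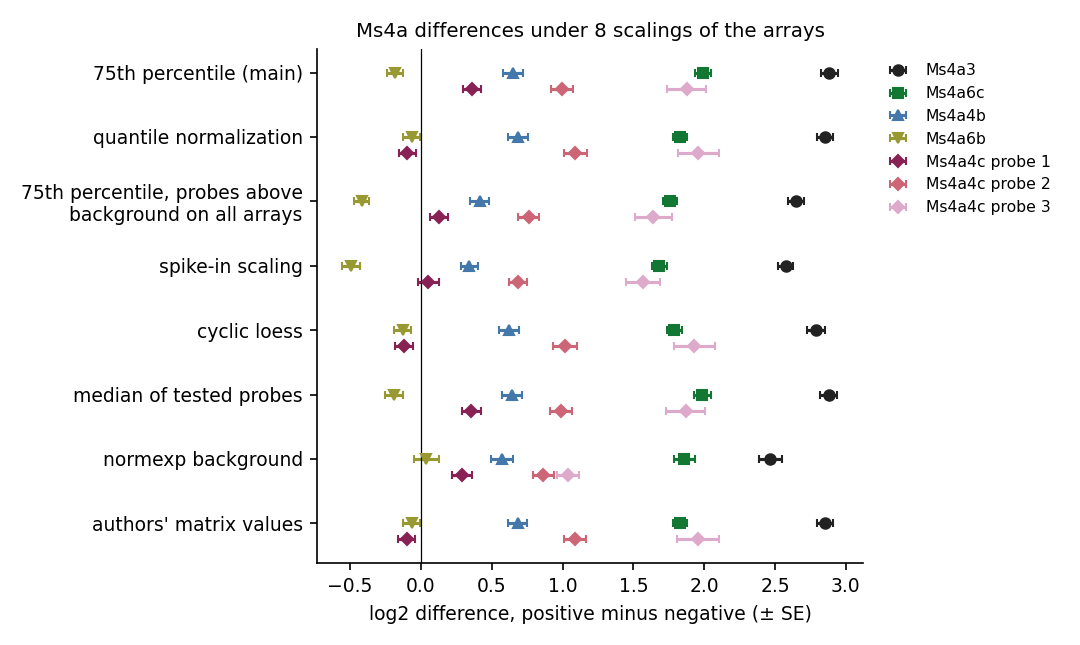
Log2 difference, positive minus negative, with its SE (x axis), for 4 Ms4a members and the 3 probes of Ms4a4c under 8 ways of scaling or background-correcting the arrays (y axis). Ms4a3, Ms4a6c, Ms4a4b and probes 2 and 3 of Ms4a4c stay above 0 in all 8; probe 1 of Ms4a4c and Ms4a6b cross 0.

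The remaining 4 members were not measurable in these cells, so nothing can be said of their direction. For Ms4a1 (CD20) the processed signals were 4.52 and 5.58 on the negative arrays, against 5.41 and 6.95 on the positive arrays, and for Ms4a2, the IgE receptor beta chain, 5.10 and 5.96, and 6.05 and 7.37. Both lay below the lowest signal of any probe well above background, which ran from 17.2 to 25.7 over the 4 arrays. Ms4a6d, at 11.1 and 10.8 and then 15.1 and 14.4, also stayed below it. Ms4a7 was well above background only on negative replicate 2, with a signal of 32.04 there, 17.0 on negative replicate 1 and 8.67 and 12.4 on the positive arrays. Scaled values of such probes carry a difference of their own: over 23130 probes above background on no array the median log2 difference was 0.69; the 75th percentile signals subtracted were 438 and 543 for the negative arrays, against 318 and 414 for the positive arrays. Without a filter on dim probes Ms4a1 (0.72) and Ms4a2 (0.70) would have been called higher with values close to it.

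**Figure D3:**
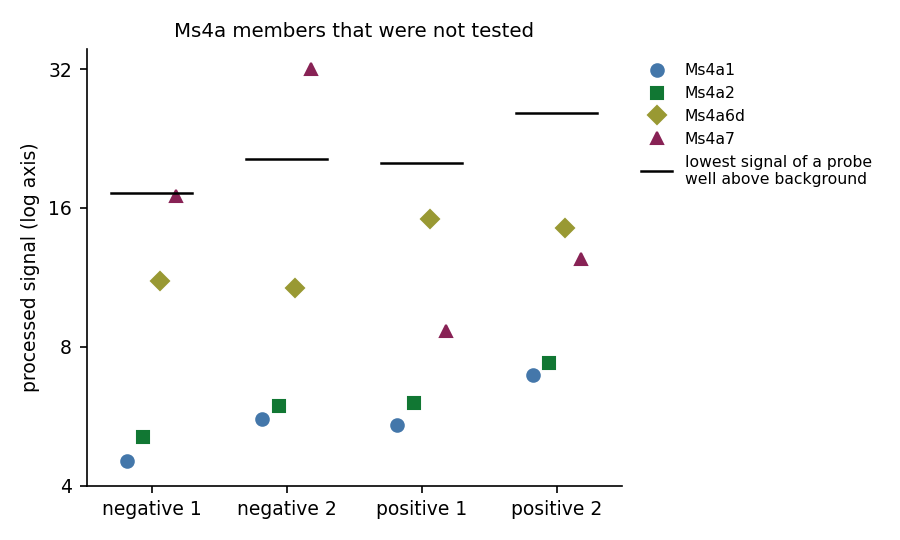
Processed signal on a log axis (y axis) of Ms4a1, Ms4a2, Ms4a6d and Ms4a7 on each of the 4 arrays (x axis), with a line at the lowest signal of a probe well above background on that array, 17.2 to 25.7. Only Ms4a7 on negative replicate 2, at 32.04, lies above its line.

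Other transcripts of the lineages that Ms4a1 and Ms4a2 mark were above background. Fcer1a, the alpha chain that binds IgE, was above background on all 4 arrays with a log2 difference of -0.06 (adjusted p = 0.725), and Fcer1g, the gamma chain shared with Fc gamma receptors, was 2.14-fold higher. Of 12 tested IgE receptor, mast cell and basophil genes 3 were higher and 4 lower, with a median of -0.05, which became 2 and 7, with a median of -0.36, with spike-in scaling. Gata2, a factor of stem and mast cells, was 2.22-fold lower. Mcpt8, a basophil protease gene, was 1.79-fold higher, a call lost when either negative replicate was left out (largest adjusted p = 0.0692). Il4 was above background on the negative arrays only and passed the filter only through them. It was at least 1.79-fold lower when the positive arrays are set to their lowest signal well above background, a bound that was not tested. The call of Il4 as 1 of the 4 lower genes rests on positive values below background. That call was lost with normexp background correction (log2 difference -0.17). Of 8 mast cell and basophil markers 6 were above background on both arrays of each group, Cma1 and Mcpt4 on none, and their summed level was 5.74 to 5.95 on the negative arrays, against 6.79 to 7.59 on the positive arrays. Mcpt8 made up 29.5% to 47.2% of the sum, and the log2 difference of the sum, 0.30, was -0.01 with spike-in scaling, so that the sum has no stable direction.

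Among 10 tested B cell receptor genes 2 were higher and 4 lower, with a median log2 difference of -0.19, and 1 and 6 with spike-in scaling. Blnk, an adaptor of B cell receptor signalling, was 3.29-fold higher, while Cr2, the complement receptor gene, was 1.79-fold lower, Cd22 1.48-fold lower and Cd72 1.44-fold lower. Of 6 B cell markers 3 were above background on both arrays of each group and Ebf1 on none, and the summed level was 1.31 on each negative array, against 0.947 to 0.952 on the positive arrays. The Cd22 probe made up 48.3% to 52.2% of this sum.

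Of 9 tested monocyte genes, 7 were higher and 1 lower, with a median log2 difference of 3.54. The lower one was Itgam (-0.52, limma adjusted p = 0.0252), a call lost without negative replicate 1 or positive replicate 2. Lyz2 did not pass (0.0077, adjusted p = 0.911). Ly86, an extracellular partner of Cd180, was 64.6-fold higher, F13a1, the factor XIII A chain gene, 37.9-fold, and the chemokine receptor genes Cx3cr1 and Ccr2 22.3-fold and 14.3-fold, log2 differences of 4.48 and 3.84 that went down to 3.64 and 2.60 over the 8 scalings. The 5 monocyte and macrophage markers on the array summed to 7.66 to 7.83 on the negative arrays, against 54.9 to 57.2 on the positive arrays, of which the Csf1r probe made up 85.9% to 93.5%, and each was above background on at least 1 array of both groups. The sums were higher on both positive arrays, as were Ms4a3, Ms4a6c and 52.4% of all genes. With 2 arrays a group, a closer link between these levels cannot be shown. Ms4a7 and Ms4a6d were not measurable, and the part of monocytes or macrophages in the differences was not tested.

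The other Ms4a genes added little. Of 8 that are on the array without being members, 7 were not tested because they were not above background on both arrays of a group: Ms4a4d, Ms4a8a, Ms4a10, Ms4a13, Ms4a15 and Ms4a19 on no array and Ms4a20 on 1. Ms4a5 had 1 of its 2 probes above background, with log2 signals of -3.25 and -3.77 on the negative arrays, against -2.43 and -2.88 on the positive arrays. Its log2 difference was 0.86 (SE 0.25, limma adjusted p = 0.0431), and it did not pass with spike-in scaling (adjusted p = 0.178), with the percentile over probes above background on all arrays (0.118), or when negative replicate 2 (0.141), positive replicate 1 (0.0965) or negative replicate 1 (0.0508) was left out. The related genes Tmem176a and Tmem176b, on another chromosome, had log2 differences of 0.17 (adjusted p = 0.0879) and 0.00469 (adjusted p = 0.957) and passed in neither direction. Both signs turned under other scalings, and Tmem176b was called lower under 5 of the 8, down to -0.47.

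The genes around the cluster were also mostly higher. Of the 10 nearest tested genes before it 8 were higher and 0 lower, with a median log2 difference of 0.60. Of the 10 after it 7 were higher and 1 lower, with a median of 0.63, close to the 0.65 of the members. Over all genes and unnamed transcripts tested 38.5% were higher and 21.4% lower, with a median of 0.16. With spike-in scaling the counts of flanking genes became 5 and 0, and 5 and 2, where 14.8% of all genes were higher. Before the cluster the largest differences were those of Tmem109 (1.12), the T cell surface protein gene Cd6 (1.08), Ccdc86 (0.82) and the splicing factor gene Prpf19 (0.77). After it came Oosp1 (1.83, and down to 1.14 over the 8 scalings), the tested gene nearest to Ms4a3, and further on Mpeg1 (3.54), which encodes the pore-forming protein perforin-2, Dtx4 (2.88), an E3 ubiquitin ligase gene, and Fam111a (0.93). Between these and Oosp1, Stx3 fell (-0.69), and Osbp had 0.28, whose sign turned with spike-in scaling.

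**Figure D4:**
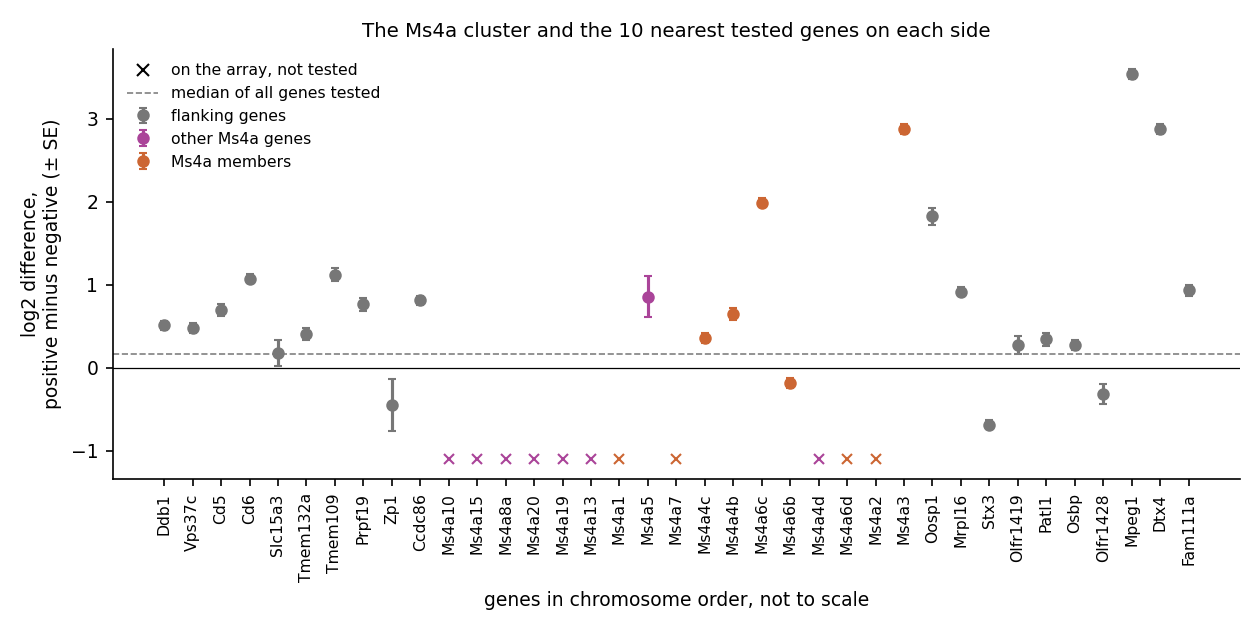
Log2 difference, positive minus negative, with its SE (y axis), for the Ms4a genes on the array and the 10 nearest tested genes on each side, in chromosome order and not to scale (x axis); crosses mark Ms4a genes that were not tested, and the dashed line is the median of all genes, 0.16. Ms4a3 (2.88), Ms4a6c (1.99), Mpeg1 (3.54) and Dtx4 (2.88) stand out, and Stx3 (-0.69), Zp1 (-0.45), Olfr1428 (-0.32) and Ms4a6b (-0.18) lie below 0, of which Stx3 alone passed.

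The genes whose 4 array values were most like those of Ms4a3 were found by the Euclidean distance between values centred on each gene's mean, over 4 arrays and 13336 other named genes. They were Dtx4 (distance 0.028), the potassium channel gene Kcng1 (0.14) and Csf1r, the M-CSF receptor gene (0.15), with log2 differences of 2.88, 2.79 and 2.74. For Ms4a6b they were Mtcp1 (0.011), Rnf145 (0.014) and Cyp4f41-ps (0.016). With 4 arrays this measure mainly sorts genes by the size of their difference between the groups.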

How the data were processed

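Per the file headers, Agilent Feature Extraction 10.7.3.1 made the deposited one-colour (Cy3) intensity values of the 4 arrays; its processed signal is corrected for background within an array. The authors' deposited matrix holds linear intensity values, whose sorted values over all 55681 rows are the same in all 4 columns (relative tolerance 1e-06); its centring is unknown. Control spots and outlier spots were left out, and the log2 of the deposited processed intensity, minus each array's 75th percentile, was used. Probes were named by RefSeq accession. Those well above background on both arrays of a group were kept (30478 probes), and the brightest represented its gene (22362 genes and unnamed transcripts). Positive minus negative was fitted with limma 3.58.1 in R 4.3.3 (lmFit, eBayes, Benjamini-Hochberg over all genes, threshold 0.05, two-sided) and tested on simulated data. With 2 arrays a group, the smallest p of an exact permutation test is 0.333. The number of arrays limits the precision.

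Members and lists were chosen with earlier results of these data known. Named are all members, the other Ms4a and Tmem176 genes, Irf8, up to 4 called genes per list with the largest difference, and the 3 genes nearest in pattern. Fcer1a, Gfi1, Tnfrsf18, Lck, Cd3e, Cd4, Il7r, Ly6a, Stx3, Zp1, Olfr1428 and Osbp were added after their values were seen. So were Itgam, Lyz2, Cebpe, S100a8, S100a9, Lcn2 and Camp. Alternatives were other scalings, background correction, filters, thresholds, probe rules, the replicate number as a block and each array left out; single-probe values of Ms4a4c under each scaling were added after seeing the data. Some sequences and motif matches are not reported here.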

Additional observations from a re-analysis of the deposited data

How the results depend on the processing

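The number of members called higher stayed between 3 and 4 of 5 under the alternatives that kept the filter. It was 6 of 9 without a filter on dim probes, where 39.2% of all genes were called higher. Under all of the alternatives 2 or 3 members were at least 2-fold different. The number called lower went from 0 to 1, Ms4a6b in each case, with spike-in scaling, with the 75th percentile of probes above background on all arrays, with only probes above background on all 4 arrays, and at an adjusted p of 0.1. Leaving out each array in turn gave 3 to 4 higher, 0 lower and 2 at least 2-fold different. The sign turned for Ms4a4c by its brightest probe with quantile normalization (-0.10), cyclic loess (-0.12) and the authors' matrix values (-0.10), and for Ms4a6b with normexp background correction (0.037); the cause was not tested. Ms4a3, Ms4a6c and Ms4a4b kept their direction and passed under all 17 alternatives run for single genes.

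With the replicate number as a block 4 members were higher, 0 lower and 2 at least 2-fold different, so no member's call changed. The labels do not say that same-numbered arrays are paired, so the main fit had no block. Same-numbered arrays deviated together only weakly (correlation 0.097 over 22362 genes, which are not independent). With 2 arrays a group this correlation cannot show whether the samples are paired.

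Over all genes, 8611 were higher and 4779 lower, which became 4760 and 2852 without negative replicate 1, 4808 and 2915 without negative replicate 2, 3299 and 8102 with spike-in scaling, 4382 and 7253 with the percentile over probes above background on all arrays, and 5303 and 6060 with cyclic loess. Dim members are limited by background.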
